A study of Drosophila melanogaster with 2 samples.

Results

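The genes described here are 10 genes of sex determination and dosage compensation in Drosophila melanogaster, out of 15889 protein-coding and long non-coding genes on the 6 chromosome arms considered. The 10 genes were chosen by name and not by a rule on measured values, but with earlier results of these data known. They were Sxl and tra of the sex determination cascade, the male-specific lethal genes msl-1, msl-2 and msl-3 with mle and mof, the zinc finger gene Clamp, and the non-coding RNA genes roX1 and roX2. The peaks came from chromatin immunoprecipitation with sequencing of CG10959, an uncharacterised protein carried as an eGFP fusion by transgenic flies of the strain CG10959-GFP and pulled down with an antibody against GFP. The material was whole embryos aged 0 to 8 h, in 2 biological replicates of 1 group with no other condition, and chromatin was sonicated to 200 to 800 bp. The labels give no sex for the embryos, and a peak in few cells and a weaker peak in many cells cannot be told apart in whole embryos. With 1 group and no second condition there was no comparison between conditions, so values are given as descriptions without a test.

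In Drosophila, Sxl is switched on in early embryos that carry a pair of X chromosomes, and its RNA-binding protein keeps its own splicing in the female mode, directs female splicing of tra and blocks production of MSL2 protein. In males, where Sxl is off, MSL2 joins MSL1, MSL3, MLE, MOF and the roX RNAs in a complex that spreads over the single X and raises transcription of its genes. Clamp binds GA-rich DNA and helps that complex find its entry sites on the X.

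A peak was assigned to a gene when its summit lay inside the gene or within 2 kb of an annotated transcription start site (TSS). The main list was the authors' list of reproducible peaks from the pooled replicates, filtered on the irreproducible discovery rate (IDR), with 3434 peaks and no score under 830. The values given for a replicate are those of its own peak that overlapped the pooled one. The ranked list was the authors' unfiltered pooled list of 148346 candidate peaks, which also gives a value for genes without a reproducible peak. Of the 10 genes, 1 had a main-list peak, Sxl, against 20.3% of all genes by the same rule. The ranked list held a peak at 9 of the 10 genes, all except Clamp, against 92.9% of all genes.

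The windows of 101 bases around the summits are shown for the main-list peak of Sxl and the next strongest peak of Sxl, for the strongest ranked peak of msl-2, for the pair of peaks at roX1 with almost equal signals, and for the strongest peak of roX2. All are on the plus strand of dm6, from the RefSeq copy of that assembly, and capitals mark matches to the searched motifs.
Sxl, main-list peak, chrX:7096627-7096727: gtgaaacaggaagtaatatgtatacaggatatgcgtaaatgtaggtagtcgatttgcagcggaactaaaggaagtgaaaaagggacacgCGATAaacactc
Sxl, second peak, chrX:7095681-7095781: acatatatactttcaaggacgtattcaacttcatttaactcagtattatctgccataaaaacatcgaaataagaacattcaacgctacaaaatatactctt
msl-2, chr2L:3465373-3465473: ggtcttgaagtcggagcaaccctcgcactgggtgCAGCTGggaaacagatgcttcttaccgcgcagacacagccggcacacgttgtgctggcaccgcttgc
roX1, chrX:3858646-3858746: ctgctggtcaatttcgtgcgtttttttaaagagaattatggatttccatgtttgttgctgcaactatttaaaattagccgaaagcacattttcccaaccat
roX1, chrX:3861216-3861316: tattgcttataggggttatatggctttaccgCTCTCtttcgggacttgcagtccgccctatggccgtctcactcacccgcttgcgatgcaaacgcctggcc
roX2, chrX:11578507-11578607: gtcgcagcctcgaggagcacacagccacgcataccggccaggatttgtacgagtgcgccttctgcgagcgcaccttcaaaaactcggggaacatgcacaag

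A search for 8 motifs covered both strands. GAGAG and its longer form GAGAGAGA are the letters bound by GAGA factor and Clamp, and a match to the longer one is also a match to the shorter one. CAGGTA belongs to the early activator Zelda. The DRE element was searched as TATCGATA and as its shorter part CGATA, which again overlap. The remaining ones were GGTCACAC and a pair of E-boxes, of which the first reads CAGCTG and the second reads CACGTG. The window of the Sxl main-list peak held 1 of them, CGATA, which 12.6% of all main-list windows held. Of the 69 ranked peaks at the 10 genes, 9 held GAGAG (13.0%, against 12.6% of all ranked windows), 7 held CGATA (10.1%, against 10.3%) and 5 held CAGCTG (7.25%, against 5.86%). CACGTG occurred in 2 of the 69 windows (2.9%, against 1.51% of all ranked windows), and CAGGTA in 1 (1.45%, against 2.34%). No window at the 10 genes held GAGAGAGA, TATCGATA or GGTCACAC, which occurred in 0.638%, 0.226% and 0.224% of all ranked windows. These shares lay within a few percentage points of those over all ranked windows for every motif searched, and a match is a run of letters and not a measured binding site.

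Sxl carried the single main-list peak. The gene (FBgn0264270) lies on the minus strand of X from 7074550 to 7098053 and has 4 annotated TSSs. The peak spanned chrX:7096497-7096856, 360 bp, with its summit at 7096677 in an intron, 389 bp downstream of the TSS at 7097066. From the same summit the TSSs at 7097768 and 7098053 were 1091 and 1376 bp upstream, and the TSS at 7092883 was 3794 bp downstream. The peak therefore sat close to the start sites at the 5' end of the gene and not at the separate start site farther in. Its signal, the authors' own value for the strength of a peak, in units they do not name in what was used here, was 106, and its score was 1000, the highest score used in the lists.

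The Sxl peak was of modest strength among reproducible peaks. It ranked 2102 of 3434 main-list peaks by signal, where the median over the list was 124.9, and 406 of the 580 main-list peaks on X, whose median signal was 139.6. It was also in the authors' conservative list. In replicate 1 the peak had a signal of 54.1 and a score of 904 and passed the filter of that replicate's own list. In replicate 2 it had a signal of 53.8 and a score of 728 and was not in that replicate's filtered list, although the summits of the replicates lay 26 and 14 bp from the pooled summit. The peak ranked 2261 of 132205 ranked peaks in replicate 1 and 2454 of 136173 in replicate 2, so both replicates placed it near the top of their candidates. Support from the filtered list of replicate 1 alone was shared by 10.8% of main-list peaks on the arms, against 46.8% with support from both, 16.4% with support from replicate 2 alone and 26.0% with neither.

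A weaker run of ranked peaks accompanied it. The pooled ranked list held 11 peaks at Sxl, of which 7 lay in introns, 2 in coding exons, 1 in the 5' UTR and 1 upstream of the gene. The second strongest had its summit at 7095731, in the intron 1335 bp downstream of a TSS, with a pooled signal of 78.9 and a score of 813, against a lowest main-list score of 830. The authors' other pooled ranked list, which holds the peaks of the conservative list, gave this peak a score of 92 and the main-list peak 1000. The replicates differed there: replicate 1 had a signal of 18.7 and rank 50781, and replicate 2 a signal of 58.6 and rank 2105. In replicate 2 this second peak was stronger than the peak that entered the main list. The third, at 7086808 in an intron, had a pooled signal of 74.5, with 26.5 in replicate 1 and 43.8 in replicate 2. A weak ranked peak lay 153 bp upstream of the separate start site at 7092883. It had a signal of 30.1 pooled and 28.1 in replicate 1, and no ranked peak of replicate 2 overlapped it. All 11 peaks lay between 1749 bp upstream and 12.1 kb downstream of the first TSS, and no pooled ranked peak fell in the remaining 11.4 kb of the gene.

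**Figure D1:**
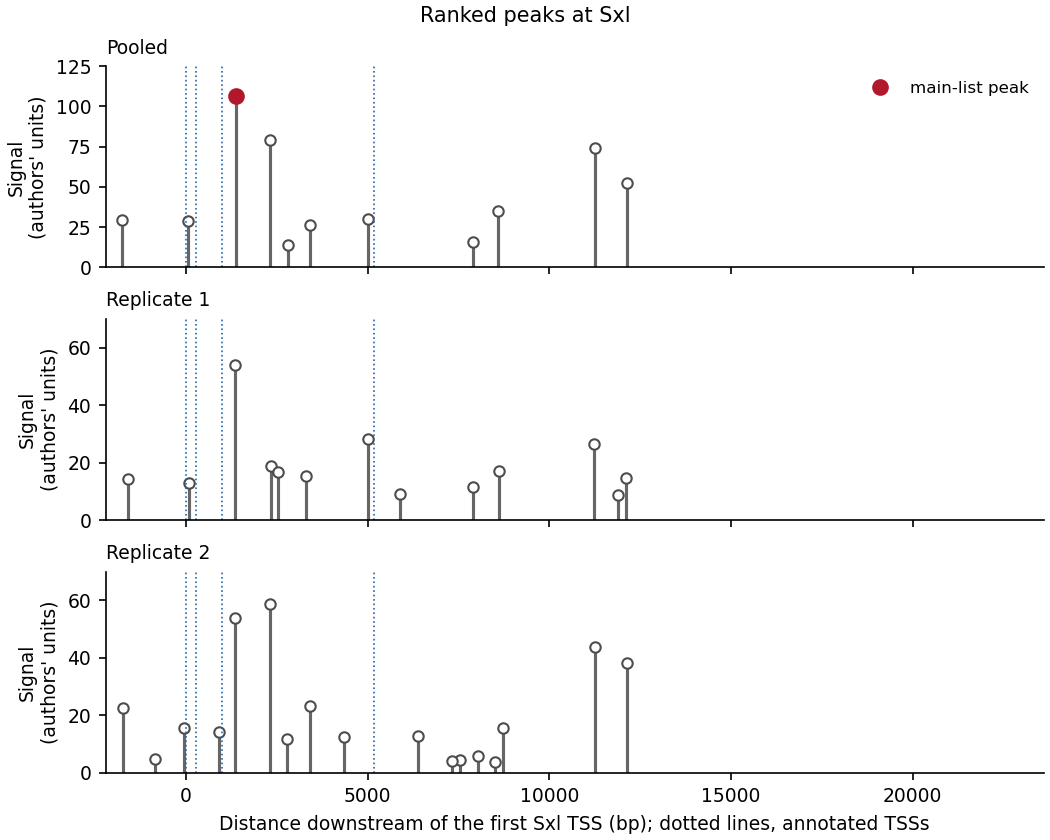
Ranked peaks at Sxl in the pooled list and in each replicate, by distance of the summit downstream of the first TSS (bp) and by signal (authors' units, each panel on the scale of its own list). Dotted lines are the 4 annotated TSSs, and the filled point is the main-list peak at 1376 bp, with signals of 106 pooled, 54.1 in replicate 1 and 53.8 in replicate 2.

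The length of Sxl bears on how its peak reads. The gene spans 23504 bp, and 53.8% of the genes of 20000 bp or more had a main-list peak, against 15.7% of genes under 6000 bp. All 9 other genes described here are under 6000 bp, and none of them had one. On X, 20.0% of genes had a main-list peak, and the shares were 21.0% for protein-coding and 15.3% for long non-coding genes. The strongest peak at Sxl was matched or exceeded at 14.7% of all genes, and at 38.6% of the genes of 20000 bp or more. Its summit was 389 bp from a TSS. By summits within 500 bp of a TSS only, without the rest of the gene, Sxl still had this peak, against 10.5% of all genes with any. The nearest other main-list peak, with a signal of 125.4, lay 3698 bp beyond the 5' end of Sxl and 549 bp from the TSS of CG4615; within 5 kb of a TSS Sxl thus had 2 peaks, and 31.1% of all genes had any.

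Over the windows of the 10 genes, 76.6 kb in all, there was 1 main-list peak, or 1.3 per 100 kb, against 2.55 per 100 kb over the 6 arms. The same windows held 69 ranked peaks, or 0.9 per kb, against 1.08 per kb over the arms. The median of the strongest ranked signal was 44.2 over the 10 genes, with Clamp counted as 0, against 56.8 over all genes. Sxl, mle, msl-2 and roX2 lay above the median of all genes, and tra, msl-1, roX1, msl-3, mof and Clamp below it.

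**Figure D2:**
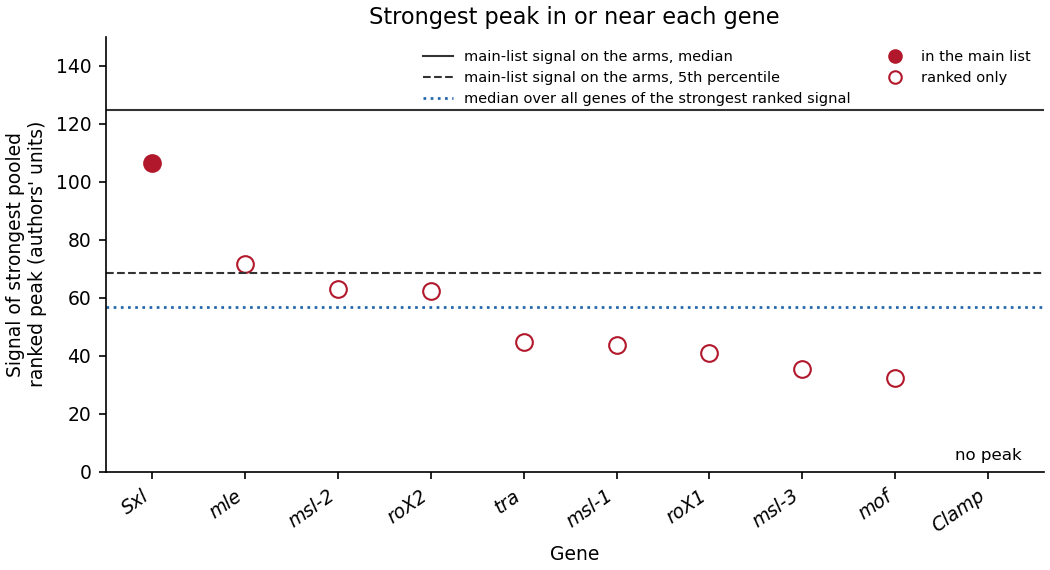
Signal of the strongest pooled ranked peak at each of the 10 genes (authors' units), filled for a main-list peak. The solid line is the median signal of main-list peaks on the arms (124.9), the dashed line their 5th percentile (68.7) and the dotted line the median over all genes of the strongest ranked signal (56.8); Sxl stands at 106, mle at 71.8 and the others between 32.5 and 63.2, and Clamp had no peak.

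The gene tra, whose female splice form directs the female splicing of dsx and fru, had no main-list peak. It is a short gene on the minus strand (FBgn0003741, chr3L:16590059-16591050). Its strongest ranked peak had a signal of 44.8 pooled, 11.2 in replicate 1 and 28.0 in replicate 2, at a summit 1191 bp upstream of the TSS, inside the neighbouring gene spd-2. The summit in replicate 1 was 141 bp from the pooled one. Inside tra itself there was 1 ranked peak, in a coding exon 438 bp downstream of the TSS, with a pooled signal of 37.5, and the ranked list of replicate 1 had no peak there. By the strongest peak that each list held at tra, 72.9% of all genes were at or above it in the pooled list, 79.7% in replicate 1, where that peak was another one with a signal of 21.2 at 1763 bp upstream, and 64.8% in replicate 2. The nearest main-list peak was 21324 bp away.

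Of the genes for the MSL proteins, msl-2 encodes the male-limiting subunit, which is made in males only. It (FBgn0005616) lies at chr2L:3462218-3466112 on the minus strand. Its strongest ranked peak, 689 bp downstream of the TSS in a coding exon, had a signal of 63.2 pooled, 31.1 in replicate 1 and 28.8 in replicate 2, where the summit was more than 200 bp from the pooled one. A second peak lay 196 bp upstream of the TSS, with a signal of 46.3 pooled, 27.3 in replicate 1 and 23.1 in replicate 2. This upstream summit was inside ND-PDSW and was 151 bp from the TSS of that gene, so the assignment to msl-2 is not unique. Their scores were 370 and 230, well under the 830 of the main list. Peaks as strong as the first occurred at 39.1% of genes in the pooled list, 47.0% in replicate 1 and 62.0% in replicate 2.

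For msl-1, which encodes the scaffold of the complex (FBgn0005617, chr2L:18683720-18688800), the replicates were unlike. The pooled list held 11 ranked peaks there and that of replicate 2 held 8, whereas that of replicate 1 held 0. The nearest summit in the list of replicate 1 was 1950 bp from the gene, and whether candidate peaks there were removed before the list was made was not tested. The strongest, in a coding exon 534 bp downstream of the TSS, had a signal of 43.6 pooled and 35.3 in replicate 2, and the next, 958 bp downstream, had 43.1 pooled and 29.0 in replicate 2. Peaks as strong as the first occurred at 75% of genes in the pooled list and 40.2% in replicate 2. A main-list peak with a signal of 98.4 lay 5233 bp from the gene.

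The chromodomain subunit gene msl-3 (FBgn0002775, chr3L:7123213-7125533) had 8 ranked peaks, all weak. Its strongest, in a coding exon 505 bp downstream of the TSS, had a signal of 35.3 pooled, 21.4 in replicate 1 and 24.7 in replicate 2. A peak almost on the TSS, 11 bp downstream in the 5' UTR, had a pooled signal of 26.3, close to the median of 26.7 over all pooled ranked peaks. At 86.3% of all genes the strongest pooled peak was at least as strong as that of msl-3. By the strongest peak in each replicate the share was 65.0% in replicate 1 and 75.7% in replicate 2. In replicate 1 that was another peak, with a signal of 26.1 at 488 bp upstream of the TSS.

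The gene mle encodes the RNA helicase that remodels the roX RNAs (FBgn0002774, chr2R:5974857-5980778). It had the strongest peak of the 9 genes without a main-list peak, with a signal of 71.8 pooled, 37.6 in replicate 1 and 25.1 in replicate 2. The summit lay in a coding exon, 3289 bp downstream of the nearest mle TSS. The pooled signal was above the 5th percentile of the main list, 68.7, but the score was 467, and the replicate scores were 180 and 39. By its strongest peak in each list, mle had 30.4% of all genes at or above it in replicate 1 and 73.5% in replicate 2, where a peak with a signal of 25.5 was marginally stronger than this one. Only 3 pooled ranked peaks lay at mle, and all 3 were in coding exons.

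The acetyltransferase gene mof, whose protein modifies histone H4 and also works in the non-specific lethal complex of both sexes (FBgn0014340, chrX:5873840-5876853), had the weakest leading peak of the genes with any in the pooled list. Its signal was 32.5 pooled, 9.42 in replicate 1 and 23.0 in replicate 2, at 901 bp upstream of the TSS inside Usp30. Within mof the strongest peak, in a coding exon 1092 bp downstream of the TSS, had 29.0 pooled, 23.4 in replicate 1 and 8.54 in replicate 2. As strong or stronger a peak than the leading one occurred at 88.6% of all genes in the pooled list. By the strongest peak in each replicate the share was 73.6% in replicate 1 and 80.9% in replicate 2. The nearest main-list peak, with a signal of 272.2, was 19284 bp away.

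Clamp (FBgn0032979, chr2L:22165720-22169143) had no pooled ranked peak, and the nearest lay 10466 bp from the gene. Replicate 1 held 2 ranked peaks there, the stronger with a signal of 37.1 and a score of 46 in a coding exon 2323 bp downstream of the TSS, and replicate 2 held 0. By its strongest peak Clamp stood at 31.6% of genes in replicate 1, and replicate 2 and the pooled list gave it no value. By replicate, ranked peaks were present at 9 of the 10 genes in replicate 1, all but msl-1, against 92.1% of all genes, and at 9 of the 10 in replicate 2, all but Clamp, against 94.5%.

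The roX RNAs are transcribed from the X, and the roX genes themselves hold entry sites for the complex. roX1 (FBgn0019661, chrX:3857230-3862697, minus strand) had 8 ranked peaks and no main-list peak. A peak in the exon, 3365 bp downstream of the nearest TSS, had a signal of 40.9 pooled, 21.3 in replicate 1 and 21.5 in replicate 2. Another, 795 bp downstream, had 40.6 pooled, 19.2 in replicate 1 and 17.1 in replicate 2, and its window, shown above, held GAGAG. Peaks as strong as the first occurred at 79.3% of all genes in the pooled list, so roX1 ranked low there. By the strongest peak in each replicate, 61.5% of all genes were at or above roX1 in replicate 1 and 84.7% in replicate 2. In replicate 1 that was another peak, with a signal of 27.1 at 1499 bp upstream. A strong main-list peak with a signal of 330.7 lay 5961 bp from roX1 and was outside the rule.

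At roX2 (FBgn0019660, chrX:11579065-11580432, plus strand) the leading peak was upstream of the gene. It had a signal of 62.5 pooled, 25.8 in replicate 1 and 35.7 in replicate 2, and a score of 515, at 508 bp upstream of the TSS inside CG11695. A second peak, with 50.1 pooled and 34.7 in replicate 1, lay just past the 3' end, 271 bp from the TSS of nod. The replicate 2 peak that overlapped it, with 24.9, had its summit 247 bp away and 28 bp from a further pooled peak, which had 32.1 and lay 52 bp from that TSS. The only ranked peak inside roX2, 152 bp downstream of its TSS, had a pooled signal of 14.4 and no counterpart in replicate 1. By the strongest peak in each list, 40.2% of all genes were at or above roX2 in the pooled list, 37.1% in replicate 1, where the peak near nod was the strongest, and 39.0% in replicate 2.

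**Figure D3:**
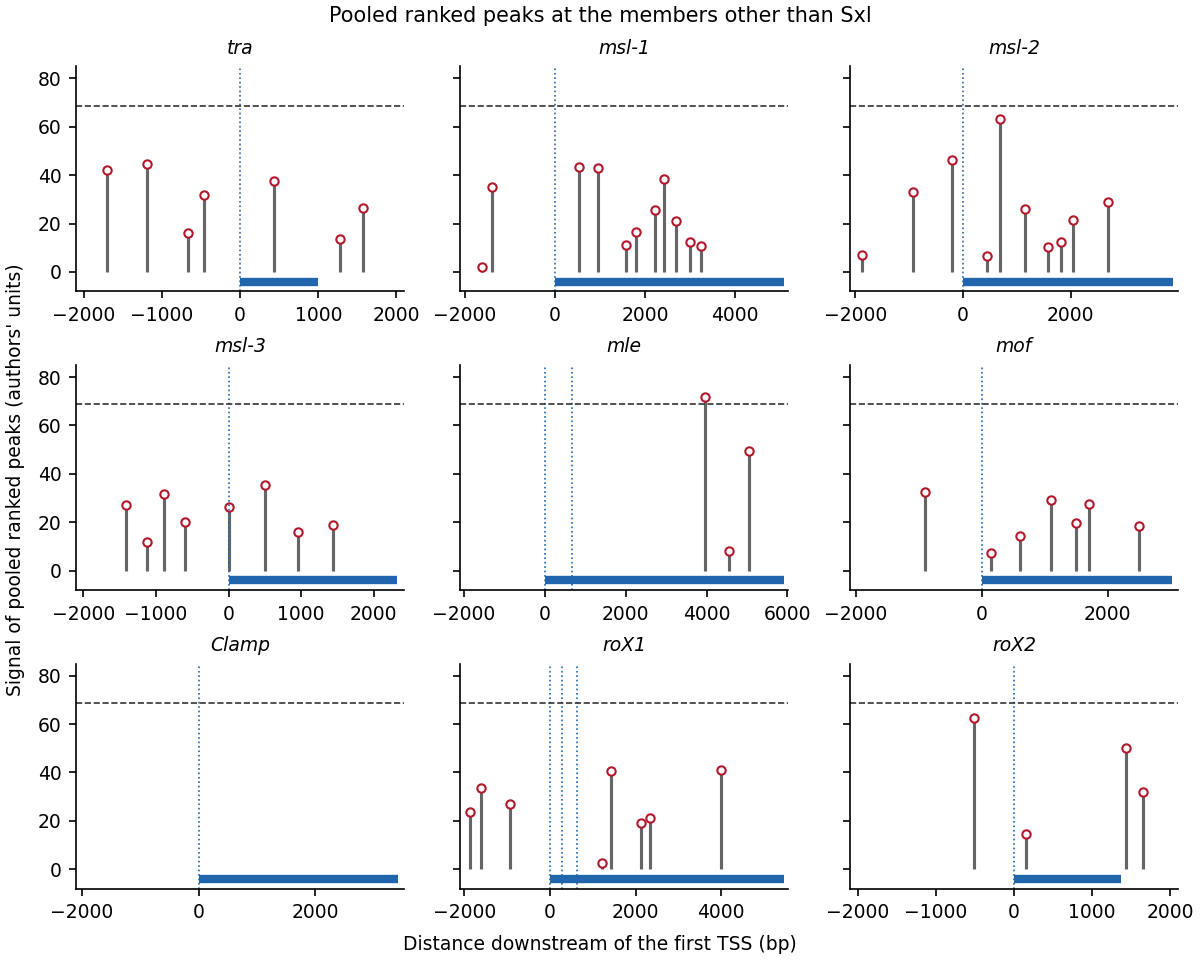
Pooled ranked peaks at the 9 genes without a main-list peak, by distance of the summit downstream of the first TSS (bp) and by signal (authors' units). Bars show the gene, dotted lines its annotated TSSs and the dashed line the 5th percentile of main-list signals, 68.7, which 1 peak passed, that of mle at 71.8.

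Most ranked peaks at these 9 genes were not at start sites. Of 58 ranked peaks, 28 lay in coding exons, 6 in exons of the roX RNAs, 2 in a 5' UTR, 18 upstream and 4 downstream of the gene. Summits of 22 fell outside the gene they were assigned to, and 20 of these fell inside another gene. Of the 69 ranked peaks with those of Sxl, 31 had the lowest score in the list, 38. A peak of the ranked list of replicate 1 overlapped 50 of the 69, and a peak of replicate 2 overlapped 64. Of the 69, 45 were overlapped in both replicates. The same replicate peak could overlap several pooled peaks, as at msl-1 and roX2, so these are not counts of separate replicate peaks. The same shares over all ranked peaks were not computed. Whether these genes differ from other genes in place, score or overlap was therefore not tested. The order of the genes by strongest peak differed between the replicates below Sxl, which was first in both with 14.7% of all genes at or above it in replicate 1 and 14.4% in replicate 2, by a different Sxl peak in each.

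**Figure D4:**
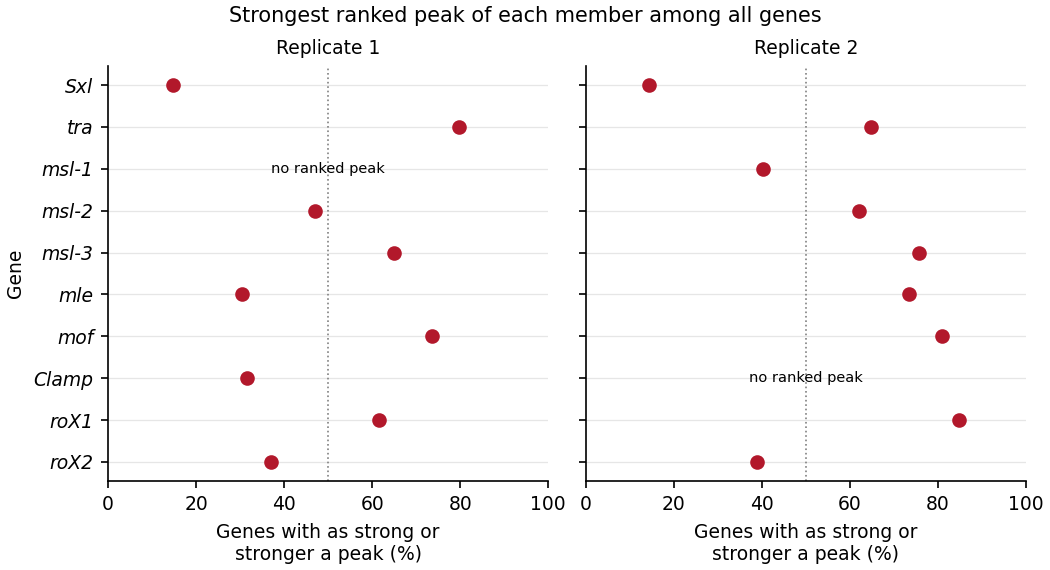
Share of all genes with as strong or stronger a ranked peak than each of the 10 genes (%), by the strongest peak each replicate's list held there; low values mean strong peaks. Sxl lies at 14.7% in replicate 1 and 14.4% in replicate 2, mle at 30.4% and 73.5%, msl-1 had no ranked peak in replicate 1 and Clamp none in replicate 2; the dotted line marks the middle of the axis.

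Under other filters no gene of the 10 but Sxl had a peak. In the filtered list of replicate 1 alone Sxl was the gene with a peak, against 13.5% of all genes, and in that of replicate 2 alone none of the 10 had one, against 15.6%. Lowering the bar to ranked peaks with a score of 540 or more, an IDR of about 0.05, gave 3 peaks, all at Sxl, and 30.8% of all genes had such a peak. The other pooled ranked list gave the 3 peaks scores of 1000, 92 and 414, so that 1 passed there, against 29.1% of all genes with such a peak. The conservative list held the Sxl peak, against 18.9% of all genes with a peak in it. None of the 10 genes had a peak among the strongest 500 of the main list, against 4.35% of all genes, or a main-list peak found in the filtered lists of both replicates, against 11.2%.

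Other genes of the same pathways had main-list peaks. Among 24 further sex determination genes, 7 had a main-list peak (29.2%, against 20.3% of all genes), with 10 peaks in all, and the median of their strongest ranked signal was 49.9. In the filtered list of replicate 1 alone 2 of the 24 had a peak (8.33%, against 13.5% of all genes), and in that of replicate 2 alone 6 (25%, against 15.6%), so the replicates placed this list on opposite sides of all genes. The strongest was at tra2, whose protein acts with Tra in splicing dsx, with a signal of 595 pooled, 262.1 in replicate 1 and 347.9 in replicate 2, and its summit was 29 bp upstream of the TSS. The co-repressor gene gro, which acts against Sxl activation, had 2 peaks, with signals of 321 and 172. Of the genes for RNA methylation, which aids Sxl splicing, fl(2)d, vir and Mettl14 had signals of 139, 94.8 and 85.3. The other genes of that machinery in the list had no main-list peak, with strongest ranked signals of 41.8 at nito, 50.1 at Flacc, 47.6 at Mettl3 and 72.5 at Ythdc1, the gene for the reader of the mark. The cascade's targets dsx, with 105, and fru, with 98.7, 90.4 and 78.8 at its 3 peaks, were near the level of Sxl. Both are long, with 43086 bp for dsx and 131314 bp for fru, and 53.8% of genes of 20000 bp or more had a main-list peak. The filtered list of replicate 2 but not that of replicate 1 held the peaks of fl(2)d, vir and dsx and the strongest of fru. The peak of Mettl14 and the fru peaks of 90.4 and 78.8 were in the filtered list of neither replicate. The conservative list did not hold the fru peaks of 98.7 and 78.8. The ranked list held no peak at sc, her and ix, which are named for that value, and held one at 92.9% of all genes.

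Of 12 further genes tied to dosage compensation, 3 had a main-list peak (25%, against 20.3% of all genes), with 6 peaks in all, and the median of the strongest ranked signal was 67.4. Trl, which encodes GAGA factor, had signals of 772 and 135. The filtered list of replicate 2 but not that of replicate 1 held the Trl peak of 135, whose summit also lay inside another gene. JIL-1, which encodes a histone kinase enriched on the male X, had signals of 455, 252 and 136. The peak assigned to the gene for heterochromatin protein HP1a had 552, but its summit was 1899 bp upstream and 62 bp from the TSS of CG8360. None of the 6 genes of the non-specific lethal complex other than mof had a main-list peak, against 20.3% of all genes. Their strongest ranked signals had a median of 46.4, against 56.8 over all genes. CG10959 itself had 1 main-list peak by the same rule, with a signal of 98.0. The summit was 621 bp upstream of the CG10959 TSS, but 213 bp from that of CG15336. This peak was in the filtered list of replicate 1 but not in that of replicate 2.

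**Figure D5:**
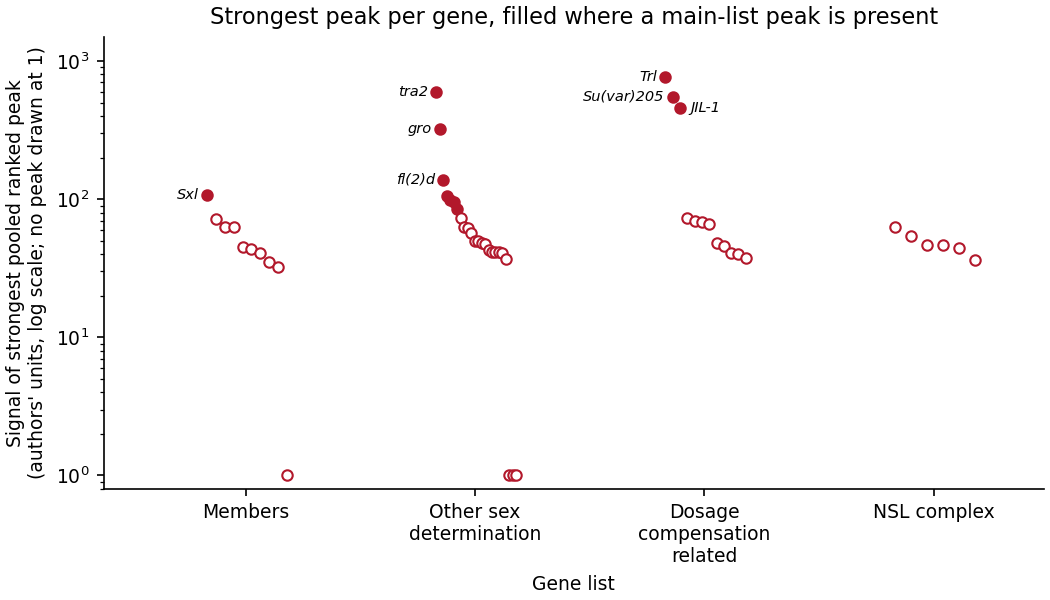
Signal of the strongest pooled ranked peak (authors' units, log scale) for the 10 genes described here and for 3 lists of related genes, each gene a point, filled for a main-list peak and drawn at 1 where the list held none. The highest filled points are Trl at 772, tra2 at 595, the HP1a gene at 552 and JIL-1 at 455, and Sxl lies at 106; the 4 filled points below fl(2)d in the same column are dsx, fru, vir and Mettl14, from 105 down to 85.3.

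The Sxl window was 40.6% GC, with 30.7% over the windows 300 bp away on both sides, whereas main-list windows had a median GC content of 34.7% (quartiles 28.7 and 45.5%) and their flanks 44.1% (quartiles 38.6 and 49.0%). The Sxl peak thus had more GC than its flanks, where the medians over the main list ran the other way. Its window lay between the quartiles of main-list windows. How many main-list peaks had more GC than their own flanks was not computed, so whether Sxl is unusual in this was not tested.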

How the data were processed

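The assay, per the labels, was chromatin immunoprecipitation with an antibody against GFP in CG10959-eGFP embryos, in 2 biological replicates. The authors deposited peak lists on dm6, ranked and IDR-thresholded, per replicate and pooled, per the deposited descriptions. Which aligner and peak caller were run, and in which version, is not given in the sources used here. A signal deposited for a peak is the authors' own value, and its scale is not given, so signals were compared within a list and shares of genes across lists. The score of each peak is the authors' deposited whole number, up to 1000. The deposited offset of the summit from the peak start gave the summit position. No counts were used, so the depth is unknown. The pooled ranked lists hold 16 columns of per-replicate values that no label ties to a replicate, and these were not used. Controls that the labels name were not analysed here.

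Genes and TSSs came from the Ensembl annotation, release 115, and sequences from the RefSeq copy of dm6. In the 3 related lists, 1 symbol was updated (Mtor to Mgtor). Overlap between lists needed 1 bp. Positions are 1-based. The main list was the pooled thresholded list, and the ranked list was the pooled one that holds all of its peaks. Motif windows reached 50 bp to each side of the summit. The rule that assigns peaks to genes was checked on simulated peaks planted at known places. Python 3.11.15, pandas 2.3.3, numpy 2.4.6 and matplotlib 3.10.9 were used. The members and lists were chosen with earlier results of these data known. Named genes are the 10 members, each gene of the related lists with a main-list peak, and CG10959; spd-2, ND-PDSW, Usp30, CG11695, nod, CG4615, CG8360, CG15336, nito, Flacc, Mettl3, Ythdc1, sc, her and ix were named after their values or positions were seen. Alternatives were other lists, distances, overlaps, peak numbers, gene classes and motif windows.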

Additional observations from a re-analysis of the deposited data

How the results depend on the processing

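The 1 gene and 1 peak of the main list came to 0 to 1 when each replicate was left out in turn, with 0 without replicate 1. Both were 0 among the strongest 500 peaks, against 4.35% of all genes, and among peaks in the filtered lists of both replicates, against 11.2%. Sxl had 2 peaks within 5 kb and 3 with a score of 540 or more (1 in the other pooled ranked list), where 1 gene had such a ranked peak, in place of 9 with any. The conservative list gave 1 (against 18.9% of all genes), and any overlap of the peak gave 1 (against 21.0%). Summits within 500 bp of a TSS only gave 1 (against 10.5%). Summits inside the gene or within 1 kb of a TSS gave 1 (against 17.0%). Of the further sex determination genes, 2 to 6 had a peak when each replicate was left out (8.33% against 13.5% of all genes without replicate 2, and 25% against 15.6% without replicate 1), 2 among the strongest 500 (against 4.35%) and 2 in the lists of both (against 11.2%). Of the dosage compensation related genes, 6 had one within 5 kb (50%, against 31.1% of all genes). At the lower score 6 had one in either pooled ranked list (50%, against 30.8% and 29.1% of all genes). Without replicate 2 it was 3 (25%, against 13.5%), and without replicate 1 it was 4 (33.3%, against 15.6%). The non-specific lethal complex genes gave 2 within 5 kb (33.3%, against 31.1% of all genes). The motif count at Sxl was 0 within 25 bp and 2 within 100 bp, and the share of genes was 21.0% over protein-coding genes. The cause of these shifts was not tested. Chosen after seeing the data were the alternatives for the 3 related lists, the other pooled ranked list, and the lower score as a replacement for the main list; the lower score for the ranked-list count was planned. No paired analysis was possible because there was 1 group. The depth is unknown, so whether a gene without a peak would show one in deeper libraries cannot be told.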
